A study of Homo sapiens with 24 samples.

Results

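The RNA of cells depleted of MYBL2 was compared directly with the RNA of cells depleted of FOXM1, with no control library in the contrast, to find the genes and programs that depended more on one factor than on the other. The comparison used 8 of the 24 RNA-seq samples of the series, namely the 4 siMYBL2 and the 4 siFOXM1 samples, chosen by their treatment labels. All 8 came from A549, an established line of human lung adenocarcinoma cells. Cells were transfected with 25 nM of small interfering RNA (siRNA), a commercial reagent against MYBL2 (siMYBL2) or against FOXM1 (siFOXM1), and all groups shared the transfection reagent and the line. The 4 siControl libraries, which are shown beside the results but did not enter the contrast, received a scrambled siRNA, as did all 3 siControl_Both libraries. The 3 siBoth libraries received the siRNAs against MYBL2 and FOXM1 together, and the dose of each in the mixture was not given. The time between transfection and RNA isolation was not given in the sources used here, and neither were the siRNA sequences.

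MYBL2 (B-MYB) is a transcription factor that joins the MuvB core in late G1 and S phase, when the repressive DREAM complex has come apart. FOXM1, a forkhead factor, is recruited to the same promoters later, in G2, and both factors act on genes of G2 and mitosis through MuvB, which binds the cell cycle genes homology region (CHR). The level of FOXM1 itself rises with the cell cycle. Genes of G1/S and DNA replication are controlled mainly by E2F factors.

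Between 24025939 and 28661115 read pairs were counted on genes per siMYBL2 library and between 24861818 and 30140550 per siFOXM1 library. Of the 58721 gene identifiers in the files, 16172 passed the filter on low counts. Levels are given as CPM, counts relative to library size after TMM scaling over the 12 siMYBL2, siFOXM1 and siControl libraries. A difference is a log2 fold change of siMYBL2 minus siFOXM1, so that a negative value means a lower level in siMYBL2, and SE is its standard error. Genes were called at an adjusted p under 0.05 (edgeR quasi-likelihood test with the replicate number as a block, Benjamini-Hochberg adjustment) and a fold change over 1.5. Mitochondrial genes took 5.43% to 6.53% of the counts in siMYBL2 and 4.52% to 5.53% in siFOXM1, and the part of this in the results was not tested. The study's methods call the replicates of its experiments biological, while the labels do not say whether these libraries came from separate cultures, and p-values measure only the spread between them.

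A total of 935 genes were called lower in siMYBL2 than in siFOXM1 (5.78% of the genes tested), and 1373 were called higher (8.49%). Without the fold threshold, 3926 genes were lower (24.3%) and 3977 were higher (24.6%), and the median log2 fold change of all genes tested was 0.00. Of the called genes, 1611 had CPM values that did not overlap between both groups of 4 libraries, as did 26.8% of all genes tested (4341 of 16172).

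**Figure D1:**
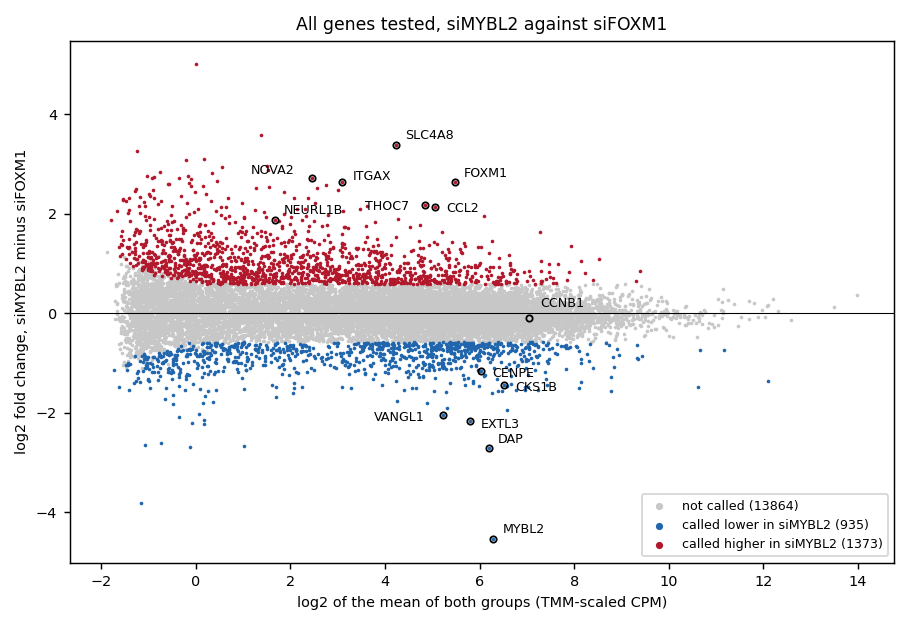
Each point is 1 of the 16172 genes tested, with the log2 of its mean level over siMYBL2 and siFOXM1 (TMM-scaled CPM) on the x axis and the log2 fold change of siMYBL2 minus siFOXM1 on the y axis; blue points were called lower in siMYBL2, red points higher, and grey points were not called. MYBL2 (−4.54) and DAP (−2.71) lie at the bottom among abundant genes, SLC4A8 (3.38) and FOXM1 (2.64) lie high in the plot, and CCNB1 lies near 0.

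Both targeted genes followed the labels. MYBL2 (ENSG00000101057.15; chromosome 20, 43667019 to 43716495 of hg38, plus strand, 14 exons in the canonical transcript) measured 5.25, 8.82, 7.10 and 4.64 CPM in siMYBL2 replicates 1 to 4, and 144, 150.4, 176 and 129.7 CPM in siFOXM1. The siControl libraries held 149.6, 160.5, 183 and 135 CPM, so MYBL2 was at 4.09% ± 0.963 (SD, n = 4) of the same-numbered siControl library in siMYBL2 and at 95.7% ± 1.29 in siFOXM1. The direct log2 fold change was −4.54 (SE 0.10, edgeR adjusted p = 1.05e-11). FOXM1 (ENSG00000111206.12; chromosome 12, 2857680 to 2877174, minus strand, 9 exons) measured 72.9, 84.5, 90.8 and 58.7 CPM in siMYBL2, 12.96, 13.3, 12.4 and 10.4 CPM in siFOXM1 and 130.4, 133, 142 and 109 CPM in siControl. In siMYBL2 it was therefore at an intermediate level, 59.3% ± 5.27 (SD, n = 4) of the same-numbered control, against 9.55% ± 0.584 in siFOXM1. Its direct log2 fold change was 2.64 (SE 0.07, edgeR adjusted p = 5.05e-11). A gene on the other strand covers 15.9% of its exons, and reads from both cannot be told apart if strand was not used in counting. The contrast thus set cells with little MYBL2 and reduced FOXM1 against cells with little FOXM1 and nearly full MYBL2.

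**Figure D2:**
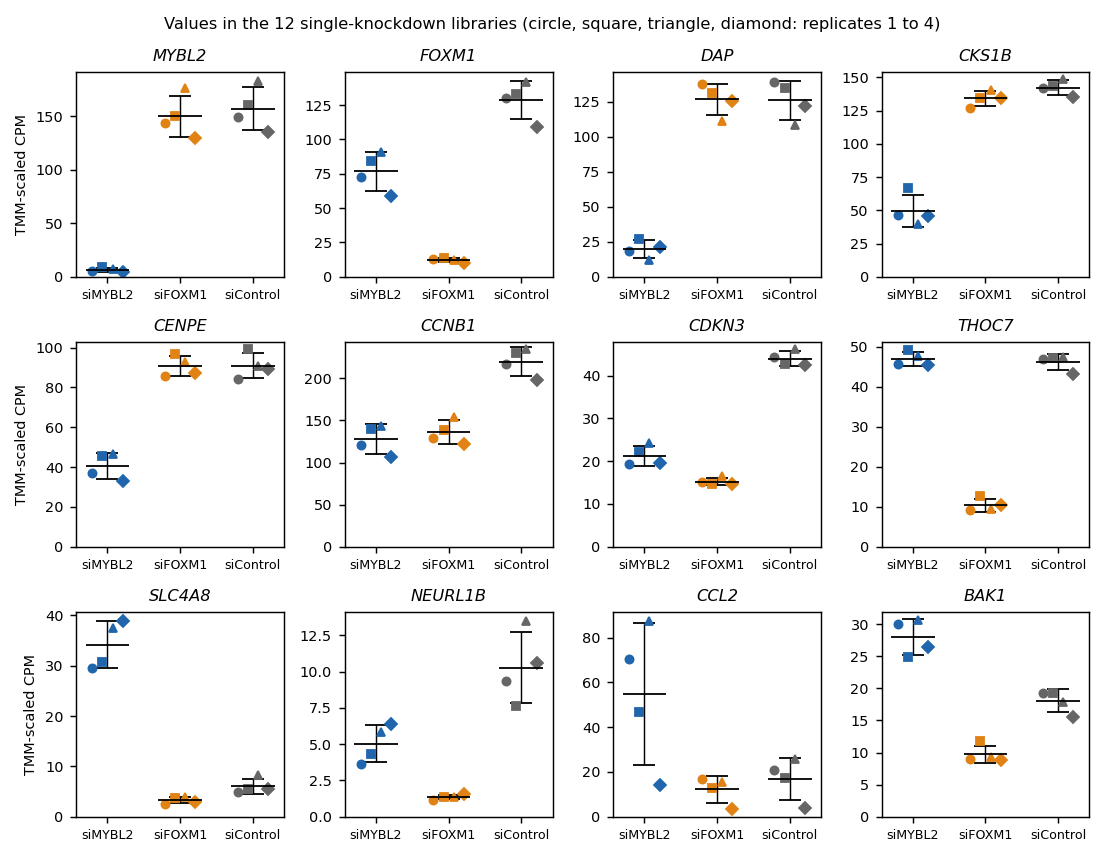
CPM of 12 genes (y axis, linear and starting at 0) in the siMYBL2, siFOXM1 and siControl libraries, with replicates 1 to 4 drawn as a circle, a square, a triangle and a diamond, and a line and bars for the mean and SD. The targeted genes, DAP, CKS1B, CENPE, THOC7 and SLC4A8 separate both knockdowns without overlap, CCNB1 does not, and FOXM1, NEURL1B and CDKN3 lie below siControl in both knockdowns but lower in siFOXM1. For DAP, THOC7 and SLC4A8 the rule by which they were named asked for this separation.

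Genes of the G2 and M phases were mostly lower in siMYBL2 than in siFOXM1, by modest amounts. Of the 54 tested genes of Seurat's G2/M-phase list, 12 were called lower and 1 higher, and 38 were lower at adjusted p alone. Among all genes tested, 5.78% were called lower, 8.49% were called higher and 24.3% were lower at adjusted p alone. The median of the list was −0.32, against 0.00 for all genes. The gene called higher was CKAP2L, a spindle protein (0.62), which lost the call without replicate 3 of either group, while 2 genes were higher without replicate 1 or without replicate 4. The S-phase list of 42 tested genes had 4 lower calls and 1 higher call (RAD51AP1), with a median of −0.23. In bulk libraries, fewer cells in a phase and less RNA per cell cannot be told apart.

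Of 19 mitotic cyclins and kinases of mitotic entry, 4 were called lower in siMYBL2 and 0 higher, against 5.78% and 8.49% of all genes. CKS1B, the CDK-binding subunit that also helps SKP2 degrade p27, changed most. It measured 46.7, 67.04, 39.6 and 45.5 CPM in siMYBL2 and 127, 135, 141 and 135 CPM in siFOXM1, and 142, 143, 149 and 135 CPM in siControl. Every siMYBL2 library thus lay below every siFOXM1 library, and siFOXM1 lay close to siControl. The log2 fold change was −1.45 (SE 0.09, edgeR adjusted p = 7.14e-08). The phosphatase CDC25B, which activates CDK1, differed by −0.82 and the mitotic kinase MELK by −0.74. PLK1, the polo-like kinase of mitotic entry, differed by −0.63, but by −0.57, short of the fold threshold, without replicate 4 of either group (other-strand gene over 12.8% of its exons). The cyclins themselves were not called, with CCNA2 at −0.11, CCNB1 at −0.09 and CCNB2 at −0.22. NEK2, the centrosome kinase, had a positive log2 fold change of 0.58 (95% interval 0.46 to 0.69), just short of the fold threshold. Without replicate 1 or replicate 4, 1 gene of the list was called higher.

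Genes of chromosome segregation had values in the same direction. CENPE, the kinetochore motor that moves chromosomes to the spindle equator, measured 37.2, 45.6, 46.4 and 33.1 CPM in siMYBL2 against 85.9, 96.6, 92.95 and 87.3 CPM in siFOXM1. All 4 siMYBL2 values were lower than all 4 siFOXM1 values, and the log2 fold change was −1.17 (SE 0.06, edgeR adjusted p = 1.49e-08). Of the 41 tested genes of the centromere, kinetochore and spindle checkpoint, 4 were called lower and 1 higher, against 5.78% and 8.49% of all genes tested. At adjusted p alone 25 were lower, against 24.3% of all genes. SPC24 (−0.95), a subunit of the NDC80 complex that holds microtubules, was called lower, while NDC80 itself (−0.30) and NUF2 (0.03) were not called. The 1 gene called higher was MIS12, a subunit of the complex that links NDC80 to the centromere. Its log2 fold change of 0.60 fell to 0.54, short of the threshold, without replicate 3 of either group.

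Of 30 kinesins and spindle proteins, 5 were called lower and 1 (CKAP2L) higher, and 0 were higher without replicate 3 of either group. The calls in this and the following lists are to be read against 5.78% lower and 8.49% higher among all genes tested. KIF11, the kinesin that pushes spindle poles apart, measured 82.7, 110.3, 109 and 82.1 CPM in siMYBL2 and 170.4, 175, 192 and 172 CPM in siFOXM1, a log2 fold change of −0.89 (edgeR adjusted p = 1.05e-07). DLGAP5, which stabilises spindle microtubules, differed by −0.98 and PSRC1 by −0.72. In the cytokinesis and passenger complex list, 3 of 14 genes were called lower, namely AURKB, the Aurora kinase of the chromosomal passenger complex (−0.87), INCENP, its scaffold (−0.80), and CDCA3 (−0.999) (other-strand gene over 11.3% of its exons). Of the passenger complex, BIRC5 (−0.35) and CDCA8 (−0.12) were not called. Of 17 genes of the anaphase-promoting complex (APC/C) and separase, 3 were called lower, led by UBE2C, its ubiquitin-conjugating enzyme (−1.10), and FBXO5, its inhibitor EMI1 (−0.90). CDC20, the activator, stood at −0.43 and was not called. In the list of condensin and chromatin of proliferation, 4 of 18 genes were lower and 0 higher, including TOP2A, the topoisomerase that untangles sister chromatids (−0.85), and UHRF1, which guides DNA methylation after replication (−0.94).

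Genes of DNA replication were lower in siMYBL2 by small amounts, and G1/S regulators were mixed. Of 47 replication genes, 34 were lower in siMYBL2 at adjusted p alone and 0 were higher, against 24.3% and 24.6% of all genes tested. The median of the list was −0.30, but only 5 genes passed the fold threshold, against 5.78% of all genes called lower. That count was 2 without the replicate block, 1 without replicate 4 of siMYBL2 or of siFOXM1, and 8 without replicate 2. ORC6, a subunit of the origin recognition complex, differed by −0.75, while the helicase subunits MCM2 to MCM7 ranged from −0.58 (MCM2) to −0.18 (MCM6). PCNA, the sliding clamp, stood at −0.07. Of 17 tested G1/S regulators, 6 were called lower and 1 higher, while 2 were lower and 2 higher without replicate 4 of either group. Among all genes tested, 5.78% were called lower and 8.49% higher. CCND3 (cyclin D3) measured 45.1, 60.3, 42.01 and 52.5 CPM in siMYBL2 and 119, 127, 130.3 and 184 CPM in siFOXM1, a log2 fold change of −1.47 (edgeR adjusted p = 4.27e-08). E2F8, a repressor of the E2F family, differed by −1.08. The gene called higher was CCND1 (cyclin D1), at 391, 454, 462 and 335 CPM in siMYBL2 and 255, 309, 272 and 204 CPM in siFOXM1. Cyclins D1 and D3 therefore differed in opposite directions. A gene on the other strand covers 10.4% of the exons of CCND1. In siControl, CCND1 held 378, 473, 438 and 305 CPM, close to siMYBL2.

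Of the 20 tested genes of homologous recombination, 1 was called lower and 1 higher, near the shares of all genes tested (5.78% and 8.49%). At adjusted p alone 14 were lower, against 24.3% of all genes. XRCC3, called lower at −0.64, shares 76.7% of its exons with a gene on the other strand, and was at −0.56, short of the fold threshold, without replicate 4 of siMYBL2 or of siFOXM1, and −0.58 without siMYBL2 replicate 3. The list had 2 lower calls without replicate 2 of either group. RAD51AP1, an accessory protein of strand exchange, was called higher at 0.61, but at 0.51 without replicate 3 of either group. Of the 14 MuvB and DREAM genes, E2F4 was lower (−0.62, and −0.55 without replicate 4 of either group) and 0 were higher. LIN9 (−0.35), LIN54 (−0.19) and RBL1 (−0.05) were not called, and the lower call of this list too lay near the share of all genes.

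**Figure D3:**
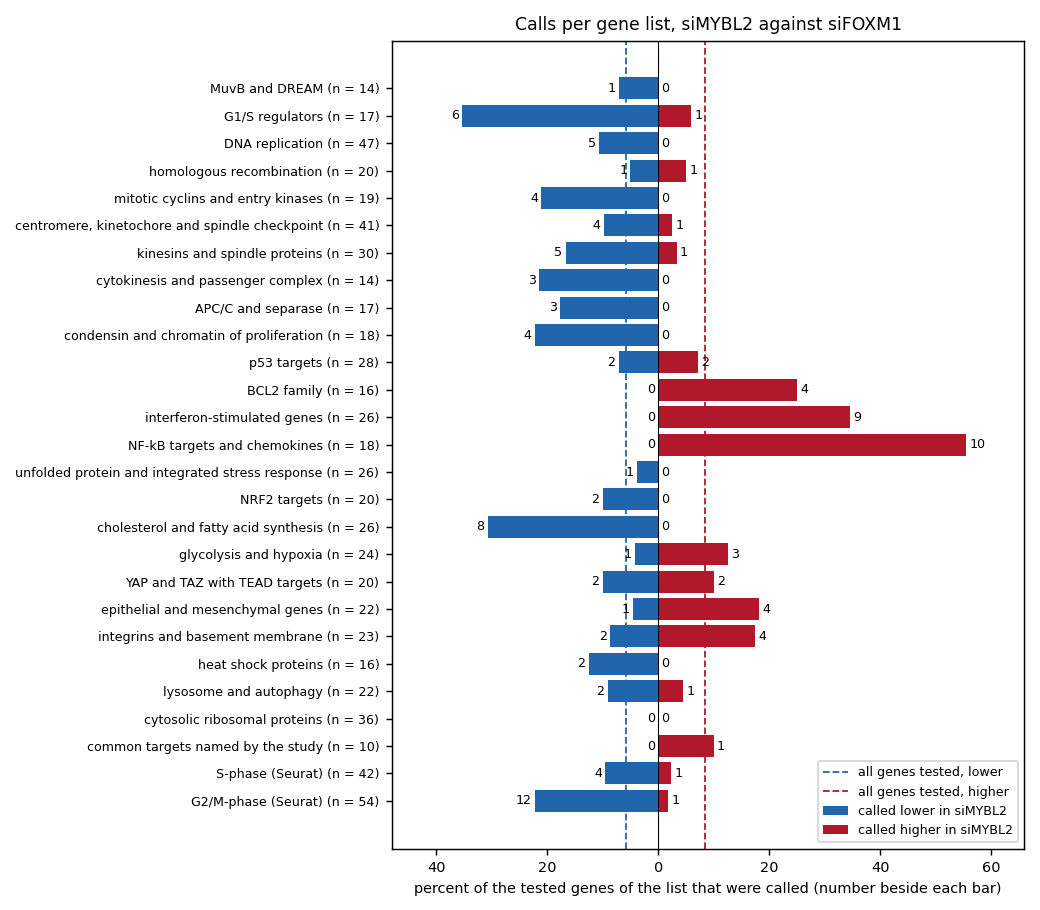
For each gene list, the percentage of its tested genes called lower (blue, to the left) or higher (red, to the right) in siMYBL2 than in siFOXM1, with the number of genes beside each bar and dashed lines at the shares of all genes tested (5.78% lower, 8.49% higher). Bars of the mitotic lists and of cholesterol and fatty acid synthesis lie on the lower side, those of NF-kB targets, interferon-stimulated genes and the BCL2 family on the higher side, and cytosolic ribosomal proteins have none.

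The study named 10 genes as common targets of MYBL2 and FOXM1. That list was chosen on these libraries, the double knockdown included, so its direction against siControl or siControl_Both is not independent evidence. Its genes had to fall in both single knockdowns, so the choice also favours small direct differences between them. Directly compared, 0 of the 10 were called lower and 1 was called higher, against 5.78% and 8.49% of all genes tested. The median log2 fold change was −0.05. CCNB1 (cyclin B1, the partner of CDK1 in mitosis) measured 121, 140.002, 144 and 106 CPM in siMYBL2, 129, 139, 154 and 122 CPM in siFOXM1 and 216, 230.1, 235 and 197 CPM in siControl. The knockdowns overlapped and both lay under siControl, and the direct log2 fold change was −0.09 with a 95% interval of −0.18 to 0.00. CDK1, the mitotic kinase, stood at 0.05 (95% interval −0.08 to 0.19), KNSTRN, a spindle protein of the kinetochore, at −0.01 (−0.14 to 0.12), and FAM83D, which recruits a kinase to the spindle, at 0.05 (−0.05 to 0.15). For these 4 genes the interval left room for differences of at most 0.19 on the log2 scale. CCNA2 (−0.11, interval −0.23 to 0.02) and BORA, an activator of Aurora A (−0.22, interval −0.45 to 0.01), were not called either. A gene on the other strand covers 37.00% of the exons of BORA.

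The remaining common targets differed between the knockdowns. FOXM1 was also reduced in siMYBL2, so effects of both factors cannot be told apart there. CENPA, the histone H3 variant that marks centromeres, measured 12.9, 14.4, 16.1 and 14.1 CPM in siMYBL2 and 18.5, 16.9, 18.7 and 18.5 CPM in siFOXM1, against 29.4, 27.02, 32.1 and 33.9 CPM in siControl. Every siMYBL2 value was below every siFOXM1 value, and the difference of −0.33 had an edgeR adjusted p of 0.00226 but did not pass the fold threshold. CCNF (cyclin F) differed by −0.44 and was not called either (other-strand gene over 11.8% of its exons, edgeR adjusted p = 0.00105). Its siMYBL2 and siFOXM1 values overlapped. CDKN3, a CDK-associated phosphatase, differed the other way, with 19.4, 22.03, 24.2 and 19.5 CPM in siMYBL2 and 15.03, 14.7, 16.5 and 14.6 CPM in siFOXM1 (0.48, edgeR adjusted p = 6.54e-05). NEURL1B, a ubiquitin ligase of the Notch ligands, was the called gene. It measured 3.62, 4.31, 5.85 and 6.37 CPM in siMYBL2, 1.17, 1.38, 1.34 and 1.56 CPM in siFOXM1 and 9.36, 7.64, 13.5 and 10.6 CPM in siControl. It was thus below siControl in both knockdowns and lowest in siFOXM1, with a direct log2 fold change of 1.88 (SE 0.15, edgeR adjusted p = 4.67e-07).

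Promoter sequences of genes that differed and of genes that did not were set side by side to show which letters of the CHR and of the CCAAT box they share. They were taken from RefSeq (GRCh38.p14), from 250 bases before to 50 after the start, with the first listed start of each gene, and a window was found for 11607 of the 16172 genes. The CHR was searched as TTTGAA and, in its other form, as TTCGAA. The CCAAT box was searched by its name. The core of the MYB site was searched as AACGG. The core of a forkhead site was searched as TGTTTA. Each was searched on both strands, and none of them contains another. The 5 windows that follow were picked for holding CHR letters and CCAAT, and capitals mark these letters on either strand. CKS1B (chr1:154974431-154974730, plus strand), DLGAP5 (chr14:55191536-55191835, minus strand) and KIF11 (chr10:92592880-92593179, plus strand) were called lower in siMYBL2. CDK1 (chr10:60778081-60778380, plus strand) and BORA (chr13:72727673-72727972, plus strand) are common targets that were not called.
CKS1B: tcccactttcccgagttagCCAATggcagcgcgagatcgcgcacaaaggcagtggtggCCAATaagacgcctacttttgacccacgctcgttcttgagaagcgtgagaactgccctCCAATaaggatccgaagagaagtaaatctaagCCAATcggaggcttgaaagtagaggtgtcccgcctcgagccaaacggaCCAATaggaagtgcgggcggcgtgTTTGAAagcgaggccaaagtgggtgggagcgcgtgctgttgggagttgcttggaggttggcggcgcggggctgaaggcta
DLGAP5: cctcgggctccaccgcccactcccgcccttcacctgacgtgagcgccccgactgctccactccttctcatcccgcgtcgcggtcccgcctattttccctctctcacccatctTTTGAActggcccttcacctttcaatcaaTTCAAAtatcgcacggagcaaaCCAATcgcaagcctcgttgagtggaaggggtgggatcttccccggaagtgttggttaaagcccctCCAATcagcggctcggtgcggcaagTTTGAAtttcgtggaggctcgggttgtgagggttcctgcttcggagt
KIF11: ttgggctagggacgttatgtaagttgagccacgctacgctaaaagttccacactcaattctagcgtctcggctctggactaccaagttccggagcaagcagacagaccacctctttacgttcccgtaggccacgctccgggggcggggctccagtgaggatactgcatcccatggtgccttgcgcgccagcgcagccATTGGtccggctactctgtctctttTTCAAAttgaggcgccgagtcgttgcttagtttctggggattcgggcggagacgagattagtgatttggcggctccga
CDK1: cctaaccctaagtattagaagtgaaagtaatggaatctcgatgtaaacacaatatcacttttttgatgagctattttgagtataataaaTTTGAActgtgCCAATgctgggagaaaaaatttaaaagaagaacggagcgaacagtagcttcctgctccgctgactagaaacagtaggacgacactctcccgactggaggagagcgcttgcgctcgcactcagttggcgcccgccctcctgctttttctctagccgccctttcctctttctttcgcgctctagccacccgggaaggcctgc
BORA: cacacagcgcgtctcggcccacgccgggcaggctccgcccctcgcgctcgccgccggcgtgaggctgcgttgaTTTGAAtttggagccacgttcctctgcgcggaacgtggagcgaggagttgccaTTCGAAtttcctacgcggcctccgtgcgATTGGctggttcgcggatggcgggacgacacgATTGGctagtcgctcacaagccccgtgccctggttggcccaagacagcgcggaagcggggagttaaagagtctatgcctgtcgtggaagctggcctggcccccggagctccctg

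CHR letters were in 16.2% of the 642 windows of genes called lower in siMYBL2 and in 10.8% of the 946 windows of genes called higher, against 11.2% of all 11607. CCAAT was in 39.7%, 30.3% and 36.2%, and both together were in 8.41%, 3.28% and 4.69%. AACGG was in 22.6%, 19.8% and 25.5%, and TGTTTA was in 6.07%, 8.67% and 7.0%. Within the 5 mitotic lists, CHR letters were in 10 of 17 windows (58.8%) of genes called lower and in 51 of 81 windows (63.0%) of genes not called. Both CHR letters and CCAAT were in 58.8% and 45.7%, and AACGG in 29.4% and 49.4%. In the DNA replication list, CHR letters were in 3 of 40 windows. These shares are descriptions with no test, and a match of letters is not a bound site.

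Another set of genes was lower in siFOXM1 and near siControl in siMYBL2. THOC7 (ENSG00000163634.11; chromosome 3, 63833870 to 63863868), a subunit of the THO complex that exports mRNA, measured 45.6, 49.2, 47.7 and 45.4 CPM in siMYBL2, 9.13, 12.7, 9.34 and 10.5 CPM in siFOXM1 and 47.04, 47.1, 47.5 and 43.3 CPM in siControl. The siMYBL2 and siControl libraries overlapped, and all siFOXM1 values lay far below, with a direct log2 fold change of 2.18 (SE 0.07, edgeR adjusted p = 4.42e-10). Against siControl, its log2 fold change was 0.04 in siMYBL2 and −2.15 in siFOXM1, comparisons that share all 4 siControl libraries. CCND1 (0.06 and −0.61), MIS12 (−0.02 and −0.62), RAD51AP1 (−0.01 and −0.63) and AMOTL1, a partner of YAP (0.23 and −0.69), were also called lower in siFOXM1 and not in siMYBL2, while their direct differences were 0.67, 0.60, 0.61 and 0.92. WWTR1 (TAZ), the partner of TEAD factors, measured 109.6, 106, 94.9 and 139.8 CPM in siMYBL2, 67.1, 64.3, 52.5 and 75.1 CPM in siFOXM1 and 212, 193, 210.4 and 248 CPM in siControl. It was below siControl in both knockdowns and lower in siFOXM1, with a direct difference of 0.80 (edgeR adjusted p = 3.48e-08).

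**Figure D4:**
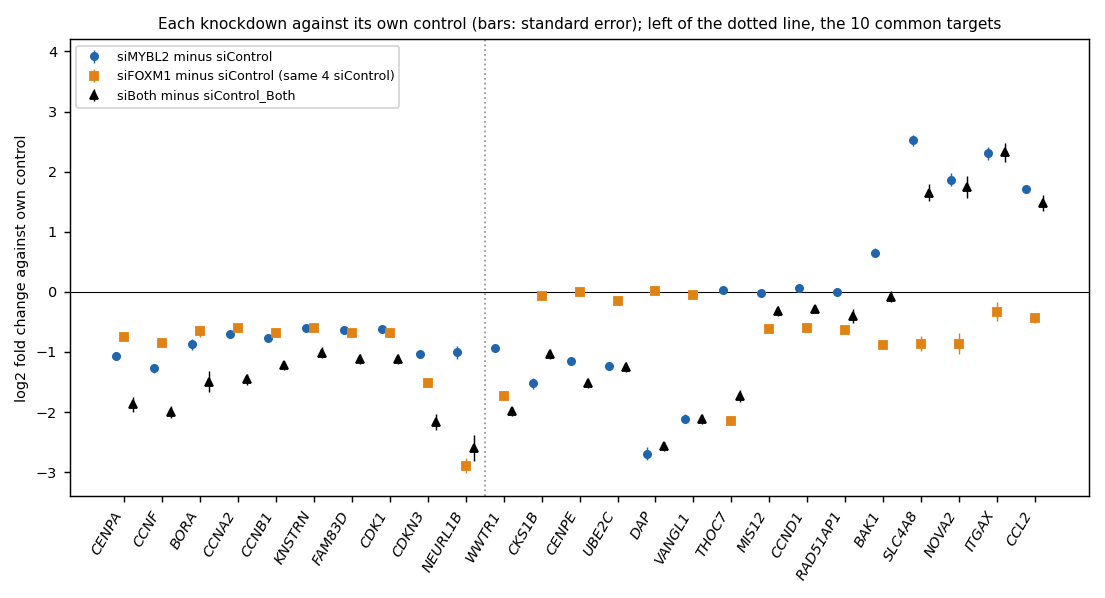
Log2 fold change (y axis, bars give the standard error) of 25 genes in siMYBL2 minus siControl (blue circles), siFOXM1 minus siControl (orange squares, the same 4 siControl libraries) and siBoth minus siControl_Both (black triangles); the 10 common targets are left of the dotted line. Common targets lie below 0 in all 3, CKS1B, CENPE, DAP and VANGL1 lie near 0 in siFOXM1 alone, THOC7 lies near 0 in siMYBL2 alone, and SLC4A8 and NOVA2 lie above 0 in siMYBL2 and below 0 in siFOXM1.

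Among the 12 largest falls in siMYBL2 relative to siFOXM1, MYBL2 was followed by DAP (ENSG00000112977.15; chromosome 5, 10679230 to 10761234), a small protein that restrains autophagy. DAP measured 18.2, 27.1, 11.9 and 21.3 CPM in siMYBL2, 138, 131, 112 and 126 CPM in siFOXM1 and 139, 135, 108 and 122 CPM in siControl. The siFOXM1 values lay within the range of siControl, and the direct log2 fold change was −2.71 (SE 0.11, edgeR adjusted p = 1.80e-09). The 12 falls and the 12 rises were named only among genes without overlap of siMYBL2 and siFOXM1, so that separation is no finding for them. EXTL3, a glycosyltransferase of heparan sulfate chains (−2.16), VANGL1, of planar cell polarity (−2.06), and SHISA5, a membrane protein of the endoplasmic reticulum (−1.94), followed. Against siControl, the log2 fold changes of these 3 were −2.06, −2.11 and −1.82 in siMYBL2 and 0.10, −0.06 and 0.12 in siFOXM1. TSPAN9, a tetraspanin (−1.80), SPR, the sepiapterin reductase of tetrahydrobiopterin synthesis (−1.61), TBC1D13, a GTPase-activating protein for Rab proteins (−1.58), and CA12, a membrane carbonic anhydrase (−1.57), were also among the 12.

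For others of the 12, siFOXM1 stood above siControl. NECAB2, a neuronal calcium-binding protein, measured 2.16, 2.36, 1.72 and 1.91 CPM in siMYBL2, 4.88, 6.39, 4.46 and 9.59 CPM in siFOXM1 and 2.49, 4.03, 1.75 and 3.42 CPM in siControl, with a direct difference of −1.61. Against siControl, its log2 fold change was −0.49 in siMYBL2 and 1.12 in siFOXM1. AMMECR1 differed by −1.58, with −0.86 in siMYBL2 and 0.72 in siFOXM1 against siControl. Both passed both thresholds in siFOXM1 against siControl.

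The largest rise was that of SLC4A8 (ENSG00000050438.16; chromosome 12, 51391317 to 51515763), a sodium-driven chloride and bicarbonate exchanger. It measured 29.7, 30.7, 37.6 and 38.9 CPM in siMYBL2, 2.61, 3.78, 3.96 and 2.85 CPM in siFOXM1 and 5.02, 5.43, 8.21 and 5.48 CPM in siControl. The siMYBL2 values lay above all siControl values and the siFOXM1 values below them, with a direct log2 fold change of 3.38 (SE 0.11, edgeR adjusted p = 2.70e-10). NOVA2, a neuronal splicing factor, differed by 2.72, with 1.87 in siMYBL2 and −0.86 in siFOXM1 against siControl, and EFNB3, an ephrin ligand, by 2.21, with 1.29 and −0.93. These 3 genes were called higher in siMYBL2 and lower in siFOXM1 against siControl.

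For most of the other rises, siFOXM1 stayed nearer to siControl. ITGAX (CD11c), an integrin chain known from myeloid cells, measured 16.1, 12.3, 15.1 and 14.97 CPM in siMYBL2, 3.43, 1.91, 2.61 and 1.63 CPM in siFOXM1 and 3.63, 3.02, 2.53 and 2.78 CPM in siControl. Every siMYBL2 library was above every siControl library, and the direct difference was 2.63 (edgeR adjusted p = 1.23e-08). NLRP1, an inflammasome sensor, differed by 2.48. Several genes best known from neurons were in the same group, namely TMEM59L (2.57), the small GTPase RAB39B (2.51), the synaptic adhesion protein LRRC4B (2.32) and the synaptotagmin SYT11 (2.32), together with FAM131B (2.15). Their siControl means were between 1.69 and 5.07 CPM, so these rises started from low levels.

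Inflammatory genes were higher in siMYBL2 than in siFOXM1. Of 18 tested NF-kB targets and chemokines, 10 were called higher and 0 lower, against 8.49% higher among all genes, and the median was 0.74. This list, like the others, was chosen with earlier results of these data known, so its share is no independent support. The count was 4 without the replicate block and 9 to 14 when single libraries were left out. CCL2, the chemokine that attracts monocytes, measured 70.2, 46.9, 87.3 and 14.04 CPM in siMYBL2 and 16.9, 12.8, 15.6 and 3.39 CPM in siFOXM1. The siControl libraries held 20.7, 17.2, 25.6 and 3.77 CPM. Replicate 4 was low in all 3 groups and the ranges of both knockdowns overlapped, while within each replicate number siMYBL2 was the higher. With the block, the log2 fold change was 2.14 (SE 0.09, edgeR adjusted p = 1.94e-09). BIRC3, an inhibitor of apoptosis induced by NF-kB, measured 285, 276, 266 and 106 CPM in siMYBL2 and 80.98, 112, 69.9 and 39.4 CPM in siFOXM1, again lowest in replicate 4, with a difference of 1.62 (edgeR adjusted p = 1.44e-08). CXCL8 (1.45), CXCL1 (0.94), the adhesion molecule ICAM1 (1.17) and the cytokine subunit EBI3 (1.35) were also called. The NF-kB subunits NFKB1 (0.06) and RELB (0.02) and the inhibitor NFKBIA (0.32) were not.

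Of 26 tested interferon-stimulated genes, 9 were called higher and 0 lower, 20 were higher at adjusted p alone, and the median was 0.48. Among all genes tested, 8.49% were called higher and 24.6% were higher at adjusted p alone. OASL, of the family that senses double-stranded RNA, measured 5.29, 4.07, 4.49 and 3.67 CPM in siMYBL2 and 1.52, 1.59, 0.461 and 0.797 CPM in siFOXM1, without overlap (2.03, edgeR adjusted p = 8.59e-06). IFIT1, an RNA-binding effector (1.46), IRF7, a factor of interferon induction (1.14), and ISG15, a ubiquitin-like modifier (1.11), were called as well, and the highest of their siMYBL2 values was 8.06 CPM. The sensors RIGI (0.34) and IFIH1 (0.16) and the kinase EIF2AK2 (−0.12) were not called. Against siControl, the log2 fold change of OASL was 1.82 in siMYBL2 and −0.22 in siFOXM1, and that of IRF7 was 0.49 and −0.65.

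Of 16 genes of the BCL2 family, 4 were called higher and 0 lower, and 2 were higher without the replicate block. The share called higher among all genes tested was 8.49%. BAK1, which opens the mitochondrial outer membrane in apoptosis, measured 29.99, 24.8, 30.7 and 26.5 CPM in siMYBL2, 8.94, 11.8, 9.30 and 8.89 CPM in siFOXM1 and 19.3, 19.3, 17.9 and 15.5 CPM in siControl. The siControl values lay between both knockdowns without overlap, and the direct difference was 1.53 (edgeR adjusted p = 7.38e-08). BMF, a BH3-only activator of apoptosis, differed by 1.74. BCL2A1, an inhibitor of apoptosis, differed by 1.85 and BIK, a BH3-only protein, by 0.97, and their edgeR adjusted p without the replicate block was 0.145 and 0.114. The members called higher thus held activators and an inhibitor of apoptosis, and BCL2 (0.08), BAX (−0.15) and MCL1 (−0.35) were not called.

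**Figure D5:**
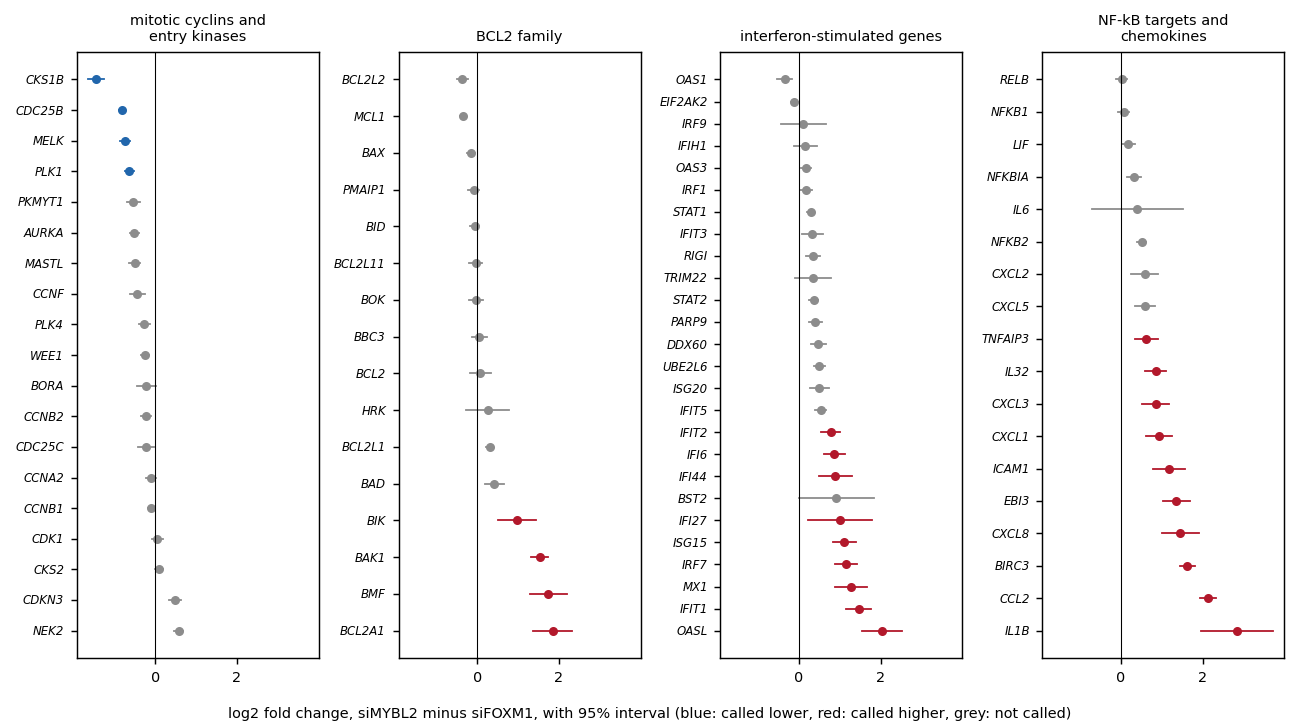
Log2 fold change of siMYBL2 minus siFOXM1 (x axis, points) with its 95% interval (lines) for every tested gene of 4 lists; blue was called lower in siMYBL2, red higher, grey not called. CCNA2, CCNB1 and CDK1 lie near 0 while CKS1B lies at −1.45, 4 members of the BCL2 family (BIK, BAK1, BMF and BCL2A1) lie to the right of the others, and most genes of both inflammatory lists lie to the right of 0.

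Genes of cholesterol and fatty acid synthesis were lower in siMYBL2 than in siFOXM1. Of 26 genes, 8 were called lower and 0 higher, and 18 were lower at adjusted p alone, with a median of −0.42. Among all genes tested, 5.78% were called lower and 24.3% were lower at adjusted p alone. FASN, the fatty acid synthase, measured 497, 433, 563 and 503 CPM in siMYBL2, 763, 717, 896 and 749 CPM in siFOXM1 and 658, 658, 891 and 680.3 CPM in siControl. All siMYBL2 values lay below all siFOXM1 values, and the difference was −0.64 (SE 0.04, edgeR adjusted p = 2.33e-08). SCD, the stearoyl-CoA desaturase, differed by −0.74 and DHCR7, of the last steps to cholesterol, by −0.66. SQLE, the squalene epoxidase (−0.12, interval −0.23 to −0.02), was not called. FASN stood at −0.51 in siMYBL2 and at 0.13 in siFOXM1 against siControl, and DHCR7 at −0.45 and 0.20, none of which passed the fold threshold.

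The 36 cytosolic ribosomal protein genes gave 0 calls in either direction and a median of −0.02. In the lysosome and autophagy list, 2 of 22 genes were lower and 1 higher, led by LAMP1, a major lysosomal membrane protein, at 68.2, 77.2, 57.3 and 69.1 CPM in siMYBL2 and 193, 182, 189 and 199 CPM in siFOXM1 (−1.49, edgeR adjusted p = 1.94e-09). The other gene called lower was ATG9A, of autophagosome formation (−1.08), with 38.8% of its exons shared with a gene on the same strand. Among 20 NRF2 targets, 2 were lower and 0 higher, namely GCLM, of glutathione synthesis (−0.70), and the heme oxygenase HMOX1 (−0.68). At adjusted p alone, 10 NRF2 targets were lower and 4 higher, with a median of −0.08. The lysosome and autophagy list had 5 lower and 11 higher at adjusted p alone, with a median of 0.13. Both lists had few calls, to be read against 5.78% called lower and 8.49% called higher of all genes tested.

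The double knockdown shares no library with the contrast and gave a view of the called genes in other libraries. Its cells received siRNAs against the same 2 genes, so effects particular to a reagent cannot be told apart there from loss of its target. Pairs not aligned made up 9.09% to 10.9% in siBoth and 7.68% to 7.92% in siControl_Both. In siMYBL2 they made up 2.1% to 2.4%, and in siFOXM1 1.91% to 2.08%. Mitochondrial genes took 3.85% to 7.12% of the counts in siBoth and 5.17% to 6.82% in siControl_Both. The part of these shares in the results was not tested. Against siControl_Both, 803 genes were lower in siBoth (5.08% of 15812 tested) and 1046 were higher (6.62%). The number of higher genes was 642 without siBoth replicate 2, 613 without siControl_Both replicate 2 and 443 without the replicate block. Of the 887 genes called lower in siMYBL2 than in siFOXM1 and tested here, 330 (37.2%) were lower in siBoth and 11 (1.24%) were higher (6 without siBoth replicate 2 or without siControl_Both replicate 2, and 3 without the replicate block). Of the 1271 called higher, 481 (37.8%) were higher in siBoth and 37 (2.91%) were lower, and 221 were higher without the replicate block. Of the 13231 genes that were not called in the direct contrast and were tested here, 421 (3.18%) were lower and 512 (3.87%) were higher. The called genes thus had more calls in siBoth in the direction of siMYBL2 minus siFOXM1 than in the other direction, although most were not called in siBoth. In siBoth, log2 fold changes were −2.57 for DAP, −1.52 for CENPE, 2.32 for ITGAX and 1.48 for CCL2. THOC7, low in siFOXM1 alone among the single knockdowns, was at −1.73. BAK1, which stood on opposite sides of siControl in the single knockdowns, was at −0.08 and not called. All 10 common targets were called lower in siBoth, which the choice of that list fixes, since the study picked it on the double knockdown too. Their values ran from −1.01 (KNSTRN) to −2.60 (NEURL1B). Of the G2/M-phase list 30 of 54 genes were lower and 0 higher.

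A set of 3 words of the 3′ UTR, picked in an earlier analysis of these libraries, were spread unevenly among the called genes. CCTTACA was in 21.4% of the 3′ UTRs of genes called lower in siMYBL2 and in 7.06% of those called higher, against 8.63% of the 13329 tested genes with a 3′ UTR of at least 30 bases. ACGCCCA was in 10.5%, 3.78% and 4.61%. GTGTTTA had the opposite order, with 14.5% of lower genes, 21.7% of higher genes and 17.5% of all. Of the 12 largest falls, 6 hold CCTTACA (DAP, VANGL1, TSPAN9, SPR, AMMECR1 and CA12) and 2 hold ACGCCCA (EXTL3 and TBC1D13), and 2 hold GTGTTTA (VANGL1 and AMMECR1). Among other genes called lower, CENPE, LAMP1 and ITGA3 hold CCTTACA, while CKS1B, CCND3, UBE2C, DLGAP5, KIF11 and FASN do not. Of the 12 largest rises, 2 hold CCTTACA, 1 holds ACGCCCA and 1 holds GTGTTTA. The genes described above as lower in siFOXM1, namely THOC7, CCND1, MIS12, RAD51AP1, AMOTL1 and WWTR1, all hold GTGTTTA, as do BAK1 and NEURL1B. Other genes called lower in siFOXM1 than in siControl do not hold it, among them SLC4A8, NOVA2, EFNB3 and IRF7. The common targets BORA, CDK1 and FAM83D hold it too, while CENPA, CCNF, CCNA2, CCNB1, KNSTRN and CDKN3 do not. The 3′ UTRs were not matched for length, which was 140 bases for CDKN3 and 5953 for AMOTL1. Since the words were chosen on the same data, these shares are no independent support for anything, and the part of the words in the differences was not tested.

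The labelled cell type was compared with its markers. Of 10 epithelial and alveolar markers, 6 passed the filter, and all 10 summed to 7050 to 10200 CPM (library-size CPM) in siMYBL2 and 7640 to 10100 in siFOXM1. The alveolar markers NKX2-1, SFTPB, SFTPC and SFTPA1 were at 0 to 8 counts and were not tested. Of the other cell types, 3 of 6 fibroblast, 1 of 6 leukocyte and 3 of 5 endothelial markers passed the filter, and the lists summed to at most 52.0, 16.2 and 6.08 CPM in any siMYBL2 or siFOXM1 library. Fibroblast markers summed to 21.7 to 43.3 CPM in siMYBL2 and 29.2 to 52.0 in siFOXM1, with LUM (−0.92) and COL3A1 (−0.76) called lower, the latter at edgeR adjusted p = 0.19 without the replicate block. Leukocyte markers summed to 8.88 to 16.2 CPM in siMYBL2 and 2.95 to 6.70 in siFOXM1. The leukocyte marker tested was CD14 (1.23, edgeR adjusted p = 8.63e-07), while PTPRC, CD3E, CD68 and LYZ were at 0 to 14 counts. A gene on the same strand covers 81.6% of the exons of CD68, so its count is uncertain. Their part in the inflammatory differences was not tested.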

How the data were processed

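Poly(A) RNA of A549 cells was sequenced as paired ends of 150 bases. Per the labels and the study's methods, the authors trimmed reads (Trim Galore), aligned them to hg38 (STAR) and counted them with HTSeq on GENCODE release 29. Versions and the strand setting were not given in the sources used here. The deposited values are raw counts of read pairs per gene, 1 file per library. HTSeq's special rows (18.5% to 20.1% of pairs in siMYBL2 and siFOXM1) were left out of library sizes and tests.

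Genes were filtered with filterByExpr on the 4 siMYBL2 and 4 siFOXM1 libraries, scaled by TMM and tested with edgeR 4.0.16 in R 4.3.3 (quasi-likelihood fit, group plus replicate number, 2-sided, Benjamini-Hochberg adjustment over all genes tested). On simulated counts with known fold changes the same fit was tested before use. Comparisons with siControl and of siBoth with siControl_Both were fitted alike. The replicate number was used as a block because same-numbered siMYBL2 and siFOXM1 libraries deviated together from their group means over 11963 genes (Pearson's r 0.524, 0.574, 0.768 and 0.864). For siBoth and siControl_Both, r was 0.553, 0.556 and 0.688. Intervals are 95% intervals of the fitted log2 fold change.

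Genes were named by rule: the targeted genes, the 12 largest falls and 12 largest rises among called genes averaging 100 counts or more without overlap of both groups, the 10 common targets, and from each list the up to 4 called genes of lowest adjusted p. Other genes were chosen after their values were seen, and some genes that the rule takes are not reported here. The gene lists were written by hand or taken from Seurat 5.3.0, and the members and lists were chosen with earlier results of these data known. Gene positions and overlaps came from GENCODE release 44, in which 58207 of the identifiers were matched and 514 were not, so overlaps may differ from release 29. Alternatives were no block, DESeq2 1.42.0, other scalings and filters, a test against the fold threshold (glmTreat), GC and length offsets, added siControl libraries, and leaving out libraries.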

Additional observations from a re-analysis of the deposited data

Results flagged for a closer look

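In 17 of 226 groups of 4 libraries checked among the named genes, 1 library lay far from the others in CPM. At the 95% critical value used, chance flags about 1 in 20 groups. Of these, 12 were in siMYBL2 and 5 in siFOXM1, and replicates 1 to 4 had 1, 5, 4 and 7.

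Replicate 4 of siMYBL2 had the most. It held HK2, of glycolysis, at 21.9 CPM (others 5.51 to 6.55) and HK1 at 167 (151 to 153). The inflammatory gene BIRC3 was at 106 (266 to 285) and the integrin ITGA2 at 223 (325 to 338). LRRC4B was at 13.7 (6.63 to 7.66) and NOVA2 at 13.2 (8.11 to 8.63), so for both the rise was present in the other 3 libraries too. In siFOXM1 replicate 4, BIK was at 0.332 (0.898 to 0.936). Replicate 4 stood on the same side in the other groups for some of these genes. HK2 was at 11.98 in siFOXM1 replicate 4 (3.23 to 4.88) and at 16.9 in siControl replicate 4 (3.85 to 6.66). BIRC3 was at 39.4 in siFOXM1 replicate 4 (69.9 to 112) and at 54.8 in siControl replicate 4 (110 to 177). Replicate 4 was also the lowest library for BIK and the highest for LRRC4B and NOVA2 in siMYBL2, siFOXM1 and siControl alike.

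In siMYBL2 replicate 2, DNAJB1 was at 154 CPM (119 to 122), BORA at 6.53 (4.79 to 4.96) and NLRP1 at 10.8 (14.6 to 14.8). In siFOXM1 replicate 2, CENPA was at 16.9 (18.5 to 18.7) and BAK1 at 11.8 (8.89 to 9.30). In siMYBL2 replicate 3, ATG9A was at 17.1 (20.1 to 20.5) and SKP2 at 46.5 (32.0 to 33.9). In siFOXM1 replicate 3, COL3A1 was at 3.30 (6.67 to 7.07) and SYT11 at 0.922 (1.52 to 1.63). In siMYBL2 replicate 1, SPC24 was at 9.48 (12.7 to 13.2). SKP2 was highest in replicate 3 and BORA in replicate 2 in siMYBL2, siFOXM1 and siControl alike. The cause of these deviations was not tested.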

How the results depend on the processing

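Every named gene that was called in the direct contrast kept its direction under each alternative in which it was tested (BCL2A1 was not tested with at least 10 counts in every library). Of the common targets near 0 that were not called, KNSTRN turned from −0.01 to 0.039 with upper-quartile scaling and to 0.006 with the GC and length offsets and the replicate block. Leaving out libraries gave −0.041 to 0.028 for KNSTRN (above 0 without replicate 4 of either group or both) and −0.022 to 0.13 for CDK1 (below 0 without replicate 3 of either group or both). The test against the fold threshold itself (glmTreat) called 375 genes lower and 550 higher, fewer by construction. All other settings stayed within 1.5 times of 935 and 1373, with 702 and 948 without the replicate block and 795 and 1195 with DESeq2 and the block. Upper-quartile scaling gave 788 and 1557 and moved the share of higher calls from 59.5% to 66.4%, with a shift of the median by 0.05 (log2). Leaving out libraries gave 856 to 1029 lower and 1239 to 1442 higher.

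Results for siBoth were less stable. Without the replicate block, 443 genes were higher in siBoth, and 221 of the genes called higher and 3 of those called lower in the direct contrast were higher there. Leaving out libraries of siBoth or siControl_Both gave 680 to 964 lower and 613 to 1162 higher, with 301 to 347 of the directly lower genes lower in siBoth and 330 to 493 of the directly higher genes higher. The causes were not tested.

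Among the 111 named genes besides the targets, 13 lost the call without the block, and 40 in the test against the fold threshold, by its construction. At this depth counting errors are small for abundant genes, while genes under a few CPM, such as OASL or NECAB2, rest on fewer reads.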

Other observations

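Single members of lists outside the cell cycle were called as well, to be read against 5.78% of all genes tested called lower and 8.49% called higher. The counts of the p53 and of the integrated stress response lists lie near these shares. Of 23 integrin and basement membrane genes, 4 were called higher and 2 lower in siMYBL2. ITGA2, a collagen receptor chain, measured 327, 338, 325 and 223 CPM in siMYBL2 and 178, 196, 142 and 162 CPM in siFOXM1 (0.83, edgeR adjusted p = 2.68e-06). ITGA3, a laminin receptor chain, measured 479.8, 639, 379.8 and 336 CPM in siMYBL2 and 961, 998, 770.01 and 682 CPM in siFOXM1 (−0.92, edgeR adjusted p = 4.57e-08). Among 20 genes of YAP and TAZ with TEAD targets, WWTR1 and AMOTL1 were higher, and TEAD4 (−1.04) and YAP1 (−0.61) were lower, so the paralogs YAP1 and WWTR1 differed in opposite directions. Without replicate 1 or replicate 3 of either group, YAP1 lost the call and 1 of the list was lower, while 3 were lower without replicate 4. A gene on the other strand covers 10.1% of the exons of YAP1.

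Of 28 p53 targets, TNFRSF10B, a death receptor (−0.97), and POLH, a translesion polymerase (−0.66), were lower, and PLK3 (0.63, and 0.54 without replicate 3 of either group) and ZMAT3 (0.67) were higher. In glycolysis and hypoxia, HK1 (0.82), HK2 (0.74) and PFKFB4 (0.60) were higher and ANKRD37 (−0.60) lower of 24 genes. Without the replicate block, HK2 (edgeR adjusted p = 0.363), PFKFB4 (0.121) and ANKRD37 (0.0764) were not called. PFKFB4 also lost the call without replicate 1 or replicate 3 of either group (0.36 at its lowest), and ANKRD37 without replicate 2, replicate 3 or replicate 4 (−0.46 without replicate 4). Among 22 epithelial and mesenchymal genes, 4 were higher and 1 lower, with MMP2 at 0.80, SPARC at 0.74, CLDN3 at 0.68 and EPCAM at −0.61, and the calls of MMP2 and EPCAM were lost without the block (edgeR adjusted p = 0.059 and 0.555). EPCAM was at −0.50 without replicate 3 of either group, and CLDN3 at 0.58 without siFOXM1 replicate 1. Of 16 heat shock genes, HSF1 (−0.61) and DNAJB1 (−0.59) were lower, and 0 were lower without replicate 1 of either group, when HSF1 was at −0.58 and DNAJB1 at −0.56. Without replicate 3, DNAJB1 was at −0.54. In the unfolded protein and integrated stress response, ATF5 (−0.70) was lower of 26 genes, and 0 were called without the block.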
